A study of Mus musculus with 18 samples.

Results

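The receptors for dendritic cell growth factors were examined as a set of 9 genes: Flt3, Csf1r, Csf2ra, Csf2rb, Csf2rb2, Kit, Il7r, Tgfbr1 and Tgfbr2. They were chosen as a list of symbols, and each of the 9 appeared in every subset's count table, among 17903 genes that appeared in at least 1. RNA had been sequenced from cDC1 and cDC2, the conventional dendritic cell subsets, and from plasmacytoid dendritic cells (pDC), all sorted from mouse spleen. The labels give 6 groups of 3 samples, namely each subset from HDAC1 Mx1-Cre mice, titled KO, and from HDAC1 floxed mice, titled WT. All mice had received PolyI/C, and the cells were sorted 2 weeks later. PolyI/C, given to bring about recombination, is therefore common to the groups. Mx1-Cre is switched on by interferon in many cell types and is not restricted to dendritic cells. The sources used here give no age, sex or strain, and no label lists the floxed allele for the Mx1-Cre mice.

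The study asked how HDAC1, a histone deacetylase, shapes the transcription of these subsets. The 18 count columns carry codes that match no sample label, so a column's subset was taken from the table that holds it and its genotype is not known. Genotypes were not compared, and each subset is described over 6 libraries that hold both genotypes in equal number per the labels. The spread within a subset therefore includes any effect of genotype. Hdac1 itself ranged from 4.94 to 74.6 CPM over the cDC1 libraries, where CPM is a gene's count scaled to a common library total, from 5.78 to 79.7 CPM over the cDC2 libraries and from 9.52 to 124 CPM over the pDC libraries. Libraries held 23530860 to 37105002 counts in cDC1, 25672768 to 33820524 in cDC2 and 24453121 to 31773453 in pDC. At these depths 3 counts corresponded to 0.0809 to 0.127 CPM, and every receptor was above that floor in every library. Per the labels, all cells were sorted as lineage-negative and CD64-negative, with XCR1, CD11b and BST2 to part the subsets. Xcr1 had a median of 966 CPM in cDC1, 7.996 CPM in cDC2 and 1.89 CPM in pDC. Itgam, which encodes CD11b, had 2.50 CPM in cDC1, 38.2 CPM in cDC2 and 2.20 CPM in pDC. Bst2 had 46.7 CPM in cDC1, 35.7 CPM in cDC2 and 1737 CPM in pDC. In every subset H2-Ab1, an MHC class II gene, had the highest median of the sort markers. Of 10 cDC1 markers, the summed level was 6100 to 7700 CPM in cDC1, 332 to 387 CPM in cDC2 and 4734 to 5196 CPM in pDC, led by Naaa, Batf3 and Irf8. Of 10 cDC2 markers it was 39.0 to 122 CPM in cDC1, 1296 to 1650 CPM in cDC2 and 1764 to 2140 CPM in pDC, led by Cd209a, Sirpa and Cd209a. Of 10 pDC markers it was 123 to 233 CPM in cDC1, 159.8 to 215 CPM in cDC2 and 21955 to 24643 CPM in pDC, led by Tcf4, Tcf4 and Siglech. Neutrophil markers, led by S100a8, summed to 232 to 897 CPM in cDC1, 25.9 to 122 CPM in cDC2 and 12.1 to 228 CPM in pDC. Erythroid markers, led by Hbb-bs, summed to 1984 to 5232 CPM in cDC1, 1854 to 3264 CPM in cDC2 and 1363 to 3747 CPM in pDC.

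Dendritic cells develop from bone marrow progenitors under the control of a few cytokines. FLT3 is the receptor tyrosine kinase for FLT3 ligand, on which all 3 subsets depend, and KIT and CSF1R are related tyrosine kinases that bind stem cell factor and, for CSF1R, CSF1 and IL-34. The GM-CSF receptor pairs an alpha chain (Csf2ra) with a common beta chain (Csf2rb), and the mouse has a second beta chain gene, Csf2rb2, whose product serves the IL-3 receptor. IL7R is the alpha chain for IL-7, with the common gamma chain, and for TSLP, with the Crlf2 product. TGFBR1 and TGFBR2 together form the TGF-beta receptor, which signals through SMAD proteins.

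The receptors split into those higher in the conventional subsets, those higher in pDC and those nearly level. Csf1r, Csf2ra and Kit were higher in both cDC1 and cDC2 than in pDC, by factors of 4.496 to 126. Il7r, Csf2rb2 and Tgfbr1 were lower in both cDC1 and cDC2 than in pDC, and the pDC level was 2.88 to 19.4 times theirs. Flt3, Csf2rb and Tgfbr2 differed by at most 1.56-fold between any subsets. Between cDC1 and cDC2, Csf1r and Kit were lower in cDC1, with a cDC2 level 11.8 and 2.19 times that of cDC1.

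**Figure D1:**
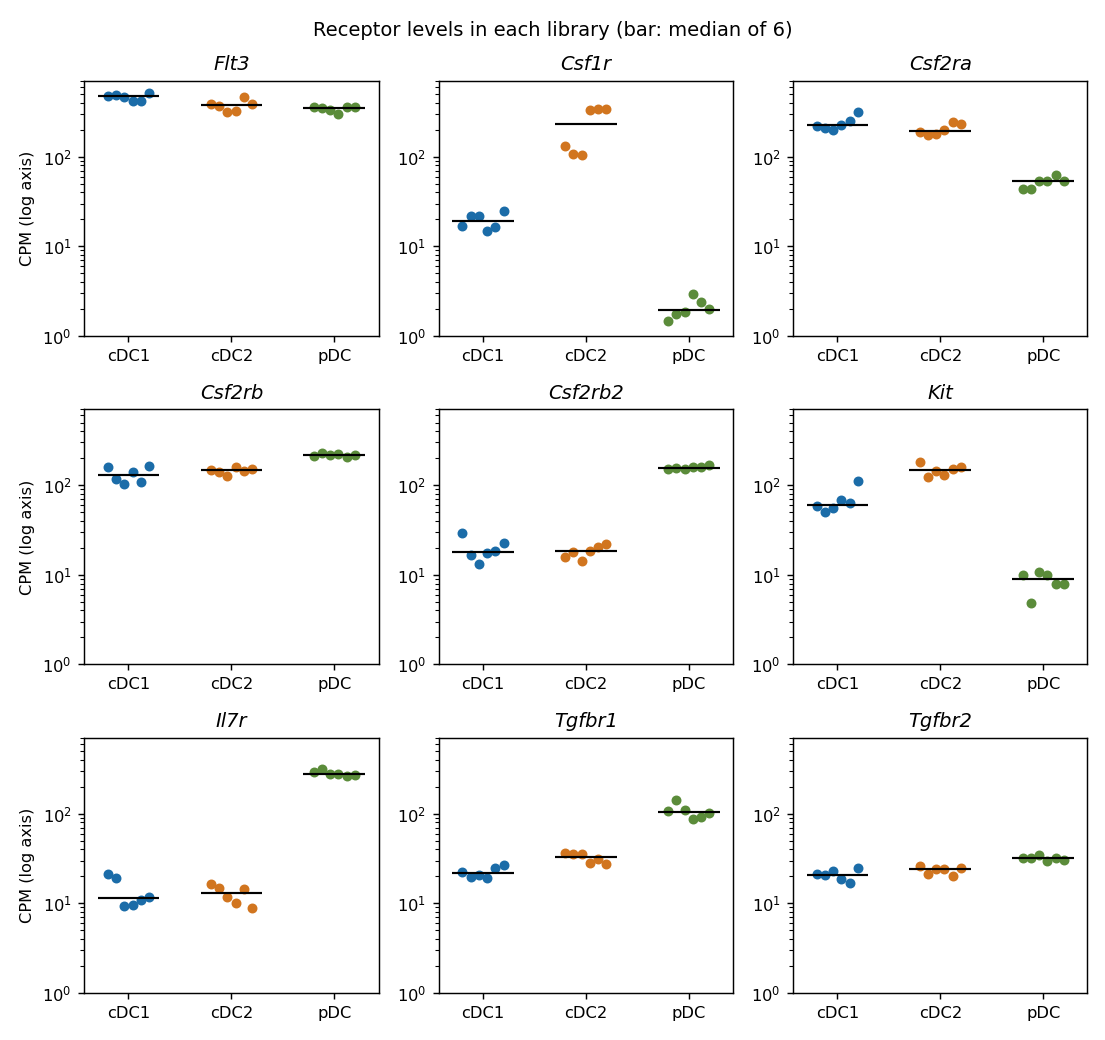
Level of each receptor in CPM, on a log axis, in each of the 6 libraries of cDC1, cDC2 and pDC, with a bar at the median. Il7r and Csf2rb2 stand highest in pDC, Csf1r and Kit stand highest in cDC2, and Flt3 lies between 303 and 517 CPM in every library.

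The comparisons were made in 1 edgeR quasi-likelihood fit over 18 libraries and 13539 genes, with Benjamini-Hochberg adjustment over those genes in each comparison and a call at an adjusted p under 0.05. All 9 receptors passed the filter on low counts. For cDC1 over cDC2, 1 receptor was called higher and 4 lower, against 50.5% of all genes called in either direction, so that 5 of 9 is close to the background. By direction, 24.8% of genes were called higher and 25.7% lower. For cDC1 over pDC, 4 were called higher and 5 lower, where 66.4% of all genes were called, 34.3% higher and 32.1% lower. For cDC2 over pDC, again 4 were called higher and 5 lower, where 64.1% of all genes were called, 32.2% higher and 32.0% lower. On TMM-scaled CPM, the 6 libraries of each subset did not overlap for 3 receptors between cDC1 and cDC2, where this held for 29.0% of all genes. It held for 9 receptors between cDC1 and pDC, beside 45.3% of all genes, and for 7 between cDC2 and pDC, beside 48.7% of all genes. When a fold change beyond 2-fold in either direction was required (edgeR's glmTreat, tested against a log2 fold change of 1), 1 receptor was called for cDC1 over cDC2, where 9.85% of all genes were called. The same test called 6 receptors for cDC1 over pDC, where 22.2% of genes were called, and 6 for cDC2 over pDC, where 22.1% of genes were called. The p-values measure the spread between these libraries, since the labels do not say whether samples came from separate mice, nor whether the subsets were sorted from the same mice. In sorted bulk RNA, fewer cells of a type within the gate and less RNA per cell cannot be told apart.

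**Figure D2:**
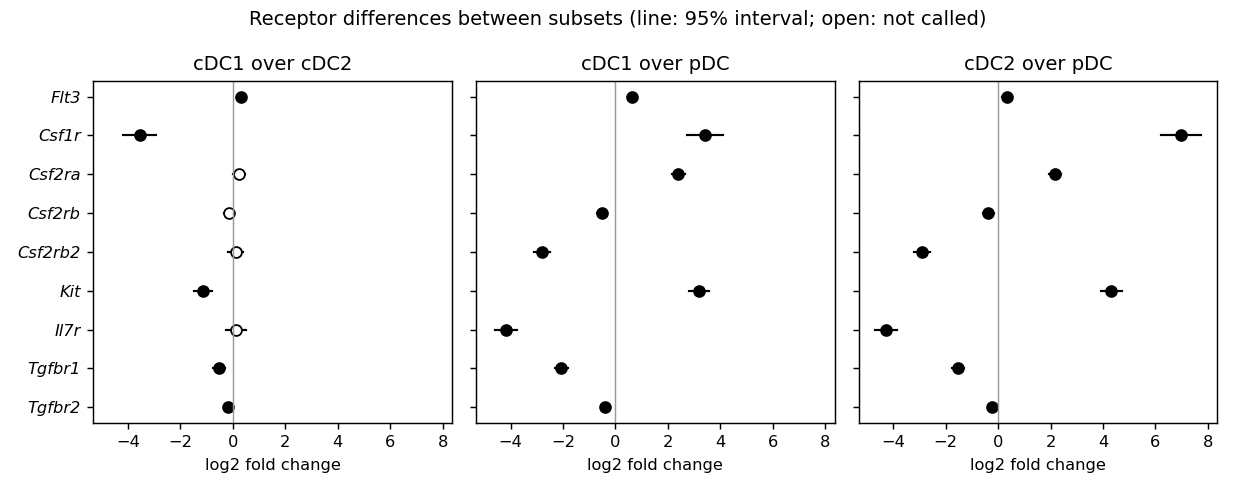
The log2 fold change of each receptor for cDC1 over cDC2, cDC1 over pDC and cDC2 over pDC, with its 95% interval as a line and filled circles for calls at an adjusted p under 0.05. Csf1r, Kit and Csf2ra lie to the right of 0 in both comparisons with pDC, and Il7r, Csf2rb2 and Tgfbr1 lie to the left.

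Among the receptor tyrosine kinases, Flt3 was abundant in every subset. It ranged from 417 to 517 CPM in cDC1 (median 473), from 313 to 461 CPM in cDC2 (median 379) and from 303 to 364 CPM in pDC (median 354). The cDC1 values were above all pDC values, whereas the cDC2 values overlapped those of both other subsets. On the log2 scale, Flt3 was higher by 0.32 ± 0.08 (SE) in cDC1 over cDC2 (adjusted p = 0.00306), by 0.64 ± 0.08 in cDC1 over pDC (adjusted p = 7.71e-07) and by 0.33 ± 0.08 in cDC2 over pDC (adjusted p = 0.00155). These differences are at most 1.56-fold, so Flt3 separates the subsets little. The gene lies at chr5:147330741-147400489 on the minus strand of GRCm38 in GENCODE M21. The gene of its ligand, Flt3l, had a median of 4.81 CPM in cDC1, 9.19 CPM in cDC2 and 8.71 CPM in pDC.

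Csf1r had the largest fold change of the 9 receptors, and in cDC2 it also had the largest spread. The gene lies at chr18:61100598-61132149 on the plus strand. In cDC1 it ranged from 15.0 to 25.1 CPM with a median of 19.1 CPM. In the 6 cDC2 libraries it was 131, 107, 105, 336, 339.9 and 339 CPM. In pDC it ranged from 1.47 to 2.91 CPM with a median of 1.94 CPM. The 3 subsets did not overlap, and no cDC2 library lay between 131 and 336 CPM, so the cDC2 median of 234 CPM describes no library. Csf1r was lower by 3.56 ± 0.30 on the log2 scale in cDC1 than in cDC2 (log2 fold change -3.56, adjusted p = 4.38e-09). The log2 fold change was 3.42 ± 0.33 for cDC1 over pDC (adjusted p = 1.35e-08) and 6.98 ± 0.37 for cDC2 over pDC (adjusted p = 8.54e-13). For cDC2 over pDC, only 0.968% of all genes had a log2 fold change of at least this size.

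The 6 cDC2 libraries differed 3.24-fold between the lowest and the highest Csf1r value. Of the 7536 genes with a median of at least 10 CPM in cDC2, 1.14% had a ratio as large, and the median ratio was 1.34. In cDC1, Csf1r had a ratio of 1.67, close to the median of 1.53 over 7391 genes there. Several markers of monocytes and macrophages split the cDC2 libraries in the same way. The share of all genes that split these libraries so was not counted. The summed level of the 12 markers, led by Lyz2, was 3140, 3374, 3156, 10060.1, 5756 and 7987 CPM, in the same order of libraries as the Csf1r values above. Without Lyz2, which encodes lysozyme, the sum was 559, 555, 500.4, 803, 753 and 763 CPM. All 12 markers were above 0 in cDC2 at the median. In the same order, Fcgr1, which encodes the CD64 that the gate excluded, was 2.06, 2.65, 0.844, 5.32, 4.39 and 3.67 CPM. Mertk, a macrophage receptor kinase, was 1.44, 1.13, 1.27, 2.98, 2.96 and 3.31 CPM. Adgre1, which encodes F4/80, ran the other way with 246, 217, 247, 158.1, 166.4 and 182 CPM. Ccr2 and C1qa, also on the list, did not split the cDC2 libraries in this way. Library a161, low in Csf1r, had 46.4 CPM of Ccr2, above the 32.8 CPM in library a170, high in Csf1r. For C1qa, library a161 had 59.4 CPM, above the 58.8 CPM in library a173, also high in Csf1r. In cDC1 the 12 markers, led by Lyz2, summed to 1129.96 CPM in library a157, 1056 in a160 and 1213 in a163. The sums were higher in the other cDC1 libraries, at 1999.79 CPM in a166, 2552 in a169 and 2249 in a172. In this order of cDC1 libraries, Lyz2 was 912, 801, 985, 1527, 2099 and 1693 CPM. Ccr2 was 39.1, 81.6, 59.8, 283, 277 and 369 CPM. Fcgr1, Mertk, Adgre1, C1qa, Cd14 and Cx3cr1, also on the list, did not split the cDC1 libraries in this way. Csf1r did not split these cDC1 libraries, with 16.7, 21.6, 21.5, 15.01, 16.3 and 25.1 CPM in the same order. In pDC the 12 markers summed to 7173 to 8024 CPM, led by Ly6c2. The part of such cells in the Csf1r values was not tested. Hmgxb3, which overlaps Csf1r on the opposite strand, ranged from 9.72 to 13.5 CPM in cDC2, and the sources used here do not say whether the counting used strand.

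**Figure D3:**
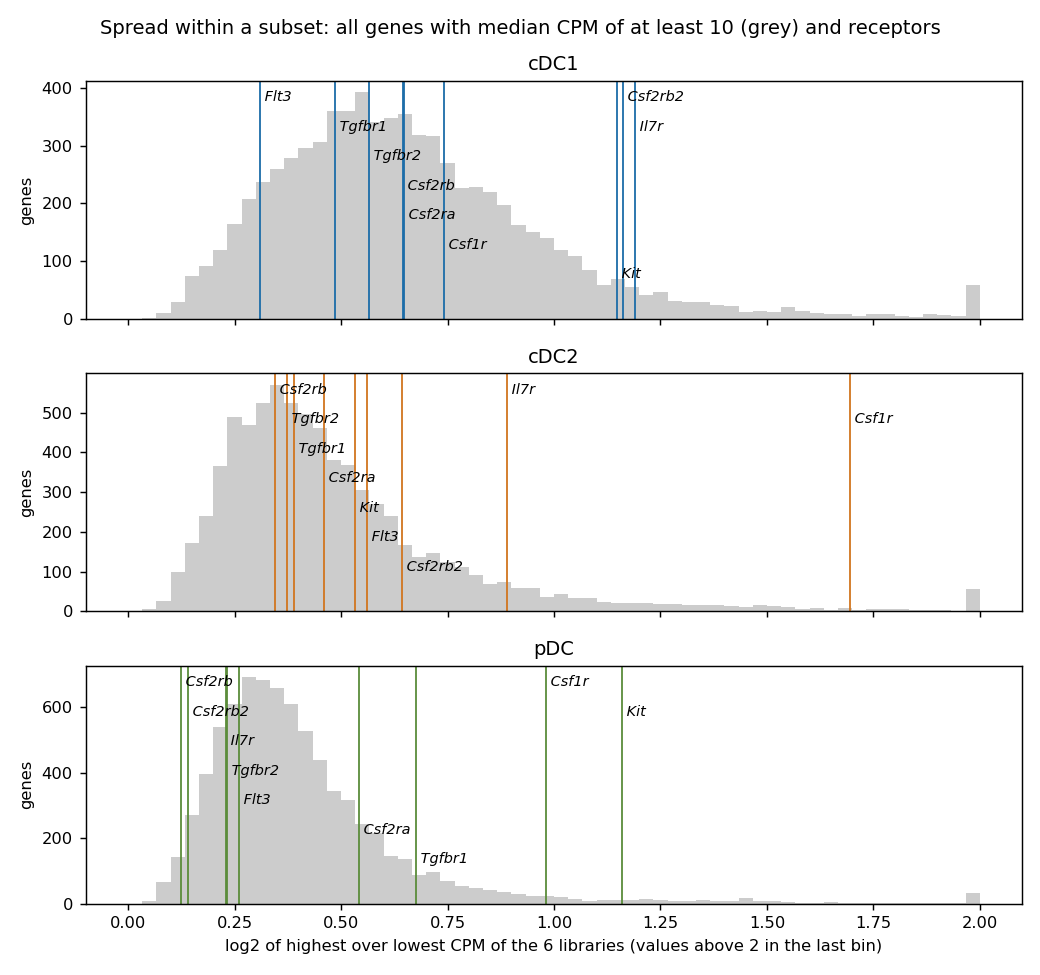
For each subset, the log2 ratio of the highest to the lowest of the 6 CPM values, shown as a grey histogram of all genes with a median of at least 10 CPM and as a labelled line for each receptor. Csf1r in cDC2 lies far to the right of the bulk of genes, whereas Csf2rb and Csf2rb2 in pDC lie at its left edge, with ratios of 1.09 and 1.10.

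Kit was highest in cDC2 and lowest in pDC. The gene lies at chr5:75574916-75656722 on the plus strand. Kit ranged from 50.7 to 112 CPM in cDC1 (median 60.4), from 125 to 180.1 CPM in cDC2 (median 148) and from 4.81 to 10.8 CPM in pDC (median 8.91). No values of different subsets overlapped. On the log2 scale the fold change was -1.13 ± 0.16 for cDC1 over cDC2 (adjusted p = 8.21e-06), 3.19 ± 0.18 for cDC1 over pDC (adjusted p = 3.10e-12) and 4.32 ± 0.19 for cDC2 over pDC (adjusted p = 4.73e-14). The cDC1 library coded a172 had 112 CPM, and the other cDC1 libraries had 50.7 to 67.8 CPM. Mast cells, basophils and progenitors are known to express Kit. The basophil and mast cell list has 8 markers, of which 8 appeared in the cDC1 table, 5 in that of cDC2 and 2 in that of pDC. Their summed levels were 9.52 to 18.8 CPM in cDC1, 22.1 to 32.0 CPM in cDC2 and 0.775 to 2.14 CPM in pDC. Most of the sum in cDC2 was Hdc, the histamine-forming enzyme, at a median of 23.8 CPM. Hdc led in cDC1 as well, and Cd200r3 led in pDC. In cDC2, Cd200r3 had a median of 1.09 CPM, and Cpa3, Ms4a2 and Gata2 each had a median under 0.1 CPM. The 8 progenitor markers, of which the cDC1 and cDC2 tables held 7 each, summed to 16.95 to 26.4 CPM in cDC1, 15.8 to 24.0 CPM in cDC2 and 43.8 to 60.1 CPM in pDC, led by Myb in cDC1 and pDC and by Meis1 in cDC2. The part of mast cells, basophils and progenitors in the Kit values was not tested.

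Of the 9 receptors, 7 had a promoter in the RefSeq table used, and Csf1r and Csf2rb had none there. The promoters of Kit, highest in cDC2, and of Il7r and Csf2rb2, both highest in pDC, are shown because these genes separate the subsets in opposite directions. Each runs from 250 bases before to 50 bases after an annotated start in GRCm38.p6 and is written 5′ to 3′ on the gene's strand. Kit is chr5:75574737-75575036 on the plus strand, the upstream of its 2 annotated starts. Il7r is chr15:9529827-9530126 and Csf2rb2 is chr15:78305672-78305971, both on the minus strand. The Il7r window lies wholly within the GENCODE M21 gene (chr15:9505788-9530176), because RefSeq and GENCODE place the start of Il7r differently. Capitals mark GAGGAA, a core bound by PU.1 and related ETS factors, and TTCNNNGAA, the palindromic STAT element, on either strand. CAGGTG, an E-box preferred by E proteins such as TCF4, was searched on both strands as well.
Kit: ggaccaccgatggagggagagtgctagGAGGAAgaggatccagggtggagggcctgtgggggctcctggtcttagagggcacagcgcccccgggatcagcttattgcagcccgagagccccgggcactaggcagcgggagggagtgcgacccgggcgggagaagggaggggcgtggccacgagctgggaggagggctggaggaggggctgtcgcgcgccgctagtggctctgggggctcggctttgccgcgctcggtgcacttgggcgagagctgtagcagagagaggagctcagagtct
Il7r: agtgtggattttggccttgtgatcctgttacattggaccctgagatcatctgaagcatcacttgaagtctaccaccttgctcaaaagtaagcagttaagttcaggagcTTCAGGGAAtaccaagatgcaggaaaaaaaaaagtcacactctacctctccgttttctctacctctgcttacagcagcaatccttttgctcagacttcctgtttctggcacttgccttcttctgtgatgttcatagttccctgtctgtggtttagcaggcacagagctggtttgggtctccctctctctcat
Csf2rb2: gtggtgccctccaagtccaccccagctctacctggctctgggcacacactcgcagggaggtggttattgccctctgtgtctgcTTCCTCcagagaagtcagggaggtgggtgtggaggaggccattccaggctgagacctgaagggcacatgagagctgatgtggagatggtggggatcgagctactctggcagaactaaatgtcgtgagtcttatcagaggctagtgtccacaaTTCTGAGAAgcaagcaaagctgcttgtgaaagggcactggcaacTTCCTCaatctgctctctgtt
GAGGAA was found 1 time in the Kit window, 2 times in the Csf2rb2 window and 0 times in the Il7r window, and 28.3% of all 32851 promoter windows in the table held it. TTCNNNGAA was found 1 time each in the Il7r and Csf2rb2 windows and 0 times in the Kit window, and 8.30% of all windows held it. CAGGTG was found in none of the 3, and 20.2% of all windows held it. Csf2ra and Tgfbr1 also separated the conventional subsets from pDC, and their windows are not shown. The Csf2ra window held GAGGAA 2 times, and the Tgfbr1 windows held it 0 and 1 times. TTCNNNGAA was found 0 times in each of the Csf2ra and Tgfbr1 windows. These matches describe letters in a window and do not show binding.

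Among the receptors higher in pDC, Il7r had the largest fold change. It is located at chr15:9505788-9530176 on the minus strand. Il7r ranged from 9.26 to 21.1 CPM in cDC1 (median 11.4), from 8.93 to 16.5 CPM in cDC2 (median 13.003) and from 266 to 312 CPM in pDC (median 277). The pDC libraries lay far above all others, and the cDC1 and cDC2 values overlapped. Il7r had a log2 fold change of -4.17 ± 0.20 for cDC1 over pDC (adjusted p = 1.85e-13) and -4.28 ± 0.20 for cDC2 over pDC (adjusted p = 1.32e-13). Between cDC1 and cDC2 it was 0.11 with a 95% interval of -0.28 to 0.49 (adjusted p = 0.665), which does not show that they are equal. Lymphoid cells also express Il7r. The 10 T, NK and innate lymphoid markers were held by every table and summed to 41.3 to 85.7 CPM in cDC1, 6.44 to 11.997 CPM in cDC2 and 311 to 966 CPM in pDC. Cd8b1 led in cDC1 and Cd3d in cDC2. In pDC nearly all of the sum was Cd8b1, with a median of 789 CPM, and Cd3e had 0.375 CPM, Gata3 0.445 CPM and Eomes 0.0963 CPM. The 8 B cell markers summed to 134 to 194 CPM in cDC1, 83.4 to 99.0 CPM in cDC2 and 266 to 470.5 CPM in pDC. They were led by Ms4a1 in cDC1, by Cd79b in cDC2 and in pDC by Fcrla at 269 CPM, with Pax5 at 0.266 CPM. Cd3e, Gata3, Eomes and Pax5 were each under 1 CPM at the median in pDC. The part of lymphoid cells in the Il7r values was not tested. Siglech, a marker of pDC, had a median of 22.95 CPM in cDC1, 10.4 CPM in cDC2 and 8610 CPM in pDC. The part of any pDC RNA in the cDC1 and cDC2 values of Il7r was not tested.

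The partners of IL7R behaved differently from Il7r. Il2rg, the common gamma chain gene, had a median of 204 CPM in cDC1, 953 CPM in cDC2 and 551 CPM in pDC, and it was called in all 3 comparisons. Crlf2, the partner in the TSLP receptor, had 21.6 CPM in cDC1, 25.2 CPM in cDC2 and 29.6 CPM in pDC, and it was called in none. The ligand gene Il7 was higher in the conventional subsets, where Il7r was low. Il7 ranged from 2.87 to 8.81 CPM in cDC1, from 3.90 to 5.66 CPM in cDC2 and from 0 to 0.349 CPM in pDC. Its fitted log2 fold change was 5.43 ± 0.39 for cDC1 over pDC (adjusted p = 1.38e-10) and 5.21 ± 0.39 for cDC2 over pDC (adjusted p = 2.48e-10).

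The chains of the GM-CSF receptor family did not move together. Csf2ra, the alpha chain, ranged from 201 to 315 CPM in cDC1 (median 224), from 177 to 243 CPM in cDC2 (median 193) and from 43.3 to 63.0 CPM in pDC (median 54.0). All pDC libraries lay below all others. Its locus is chr19:61223957-61228429 on the minus strand. Csf2ra had a log2 fold change of 2.40 ± 0.11 for cDC1 over pDC (adjusted p = 1.46e-13) and 2.17 ± 0.11 for cDC2 over pDC (adjusted p = 6.16e-13). Between cDC1 and cDC2 it was 0.23 with a 95% interval of 0.01 to 0.45 and was not called (adjusted p = 0.0786). It was called without library a163 of cDC1 (adjusted p = 0.0414) or without library a170 of cDC2 (adjusted p = 0.0342).

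Csf2rb, the common beta chain, ranged from 104 to 163.2 CPM in cDC1 (median 129), from 127 to 161.6 CPM in cDC2 (median 147) and from 208 to 227 CPM in pDC (median 219). All pDC values were above all others. Csf2rb had a log2 fold change of -0.14 with a 95% interval of -0.33 to 0.06 for cDC1 over cDC2 (adjusted p = 0.251), -0.50 ± 0.10 for cDC1 over pDC (adjusted p = 0.000101) and -0.37 ± 0.10 for cDC2 over pDC (adjusted p = 0.00206). Csf2rb2, the IL-3 receptor beta chain, showed a larger difference in the same direction. It ranged from 13.2 to 29.6 CPM in cDC1 (median 17.8), from 14.1 to 22.0 CPM in cDC2 (median 18.4) and from 151 to 166.7 CPM in pDC (median 157.1). Its log2 fold change was -2.79 ± 0.14 for cDC1 over pDC (adjusted p = 6.60e-13), -2.90 ± 0.14 for cDC2 over pDC (adjusted p = 3.70e-13) and 0.11 with a 95% interval of -0.18 to 0.40 for cDC1 over cDC2 (adjusted p = 0.535). Il3ra, the alpha chain of the IL-3 receptor, was low throughout, with a median of 5.52 CPM in cDC1, 5.58 CPM in cDC2 and 9.59 CPM in pDC. It was called lower for cDC2 over pDC (log2 fold change -0.63, adjusted p = 0.0476) and was not called for cDC1 over pDC (log2 fold change -0.61, adjusted p = 0.0536).

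The beta chain genes are near copies of each other, which bears on how reads were assigned between them. Csf2rb lies at chr15:78325752-78353847 on the plus strand and Csf2rb2 at chr15:78282507-78305721 on the minus strand of GRCm38. Their longest annotated coding sequences, of 2691 and 2637 bases, were identical at 95.2% of 2631 aligned positions. The longest stretch they share without a difference is 242 bases long, from coding base 2083 to 2324 of each. It is shown because a read from within it fits both genes.
Csf2rb and Csf2rb2: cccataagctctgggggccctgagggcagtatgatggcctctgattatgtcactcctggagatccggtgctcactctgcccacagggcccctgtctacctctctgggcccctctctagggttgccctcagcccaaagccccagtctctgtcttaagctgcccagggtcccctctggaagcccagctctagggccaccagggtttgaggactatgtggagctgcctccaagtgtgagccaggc
Of the 31-base words in annotated Csf2rb transcripts, 18.8% also occurred in Csf2rb2, and of those in Csf2rb2 28.6% also occurred in Csf2rb. For each of the other 7 receptors, at most 1.66% of words occurred in any other gene. The split of counts between Csf2rb and Csf2rb2 is therefore less certain than the other levels.

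Levels of different genes were compared per kilobase of merged annotated exons. On the scale of CPM per kb, Csf2ra had the highest median in cDC1 (78.1) and in cDC2 (67.1), followed by Flt3 in both (76.5 in cDC1 and 61.4 in cDC2). In pDC the order was Il7r (59.4), Flt3 (57.3), Csf2rb2 (33.1) and Csf2rb (30.0). The ranges of Csf2ra and Flt3 overlapped in both conventional subsets, and those of Il7r and Flt3 overlapped in pDC. Compared library by library, Csf2ra was above Flt3 in every cDC2 library, whereas the order varied between libraries in cDC1. The order of Il7r and Flt3 also varied between the pDC libraries. These differences between genes were not tested. Within each library, the ratio of Csf2ra to Csf2rb on this scale had a median of 4.68 in cDC1, 3.37 in cDC2 and 0.618 in pDC. On this scale the alpha chain was above the beta chain in every conventional library, at 3.11 or more. It was below the beta chain in every pDC library, at 0.767 or less. Where these ratios lie relative to 1 depends on the exon lengths used, which need not be those of the transcripts expressed. The ratio of Csf2rb2 to Csf2rb was 0.217 in cDC1, 0.187 in cDC2 and 1.10 in pDC.

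These ratios, and that of Tgfbr1 to Tgfbr2, were chosen after the levels were seen, and 9 comparisons of them were made by exact 2-sided permutation of 6 against 6 libraries, whose smallest possible p is 0.00216. Csf2ra over Csf2rb was 7.55-fold higher in cDC1 than in pDC and 5.81-fold higher in cDC2 than in pDC (exact permutation p = 0.00216 each, 0.00325 adjusted over the 9). Every conventional library was above all pDC libraries in Csf2ra and below them in Csf2rb. Those p-values were therefore fixed at their smallest by levels already seen and add no support. Csf2ra over Csf2rb was 1.30-fold higher in cDC1 than in cDC2 (exact permutation p = 0.0173, adjusted 0.0223). For Csf2rb2 over Csf2rb the fold was 0.202 in cDC1 over pDC and 0.171 in cDC2 over pDC (exact permutation p = 0.00216 each, adjusted 0.00325). Between cDC1 and cDC2 that ratio differed 1.18-fold (exact permutation p = 0.0823, adjusted 0.0823).

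**Figure D4:**
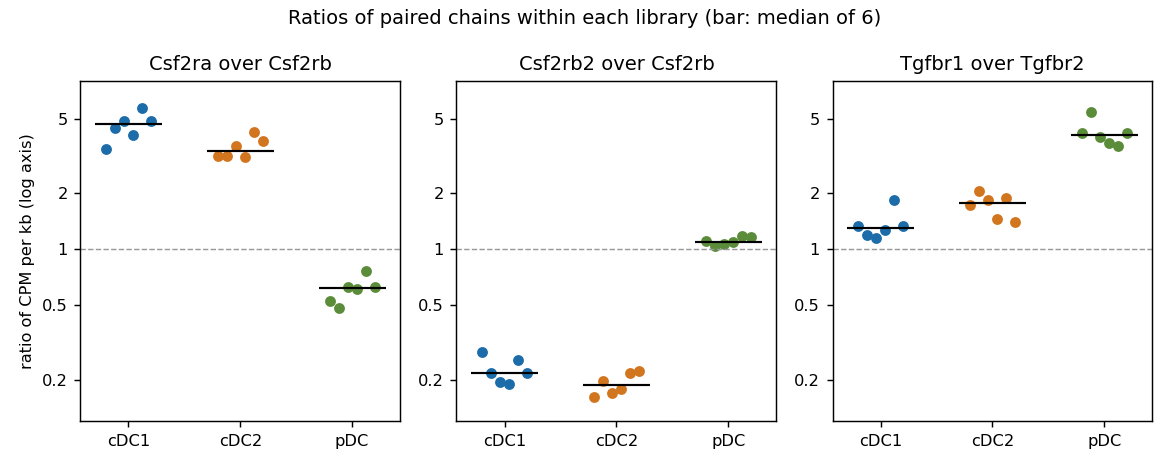
Ratio of CPM per kb between paired chains within each library, on a log axis, with a bar at the median of the 6 libraries and a dashed line at 1. The ratio of Csf2ra to Csf2rb is above 1 in every cDC1 and cDC2 library and below 1 in every pDC library, and the ratio of Csf2rb2 to Csf2rb is near 1 in pDC alone.

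The TGF-beta receptor chains were both lowest in cDC1 and highest in pDC by median, with a larger difference for Tgfbr1. Tgfbr1, the type I receptor kinase, ranged from 18.9 to 26.5 CPM in cDC1 (median 21.6), from 27.8 to 36.4 CPM in cDC2 (median 33.1) and from 87.9 to 140.4 CPM in pDC (median 106). The subsets did not overlap. Tgfbr1 had a log2 fold change of -0.54 ± 0.11 for cDC1 over cDC2 (adjusted p = 0.000525), -2.06 ± 0.12 for cDC1 over pDC (adjusted p = 2.77e-12) and -1.53 ± 0.11 for cDC2 over pDC (adjusted p = 2.46e-10). The gene lies at chr4:47353222-47414931 on the plus strand.

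Tgfbr2, the ligand-binding type II receptor, ranged from 16.7 to 24.8 CPM in cDC1 (median 20.8), from 20.4 to 26.4 CPM in cDC2 (median 24.3) and from 29.5 to 34.7 CPM in pDC (median 32.2). The conventional subsets overlapped each other. On this scale the pDC values were above both, but on TMM-scaled CPM those of cDC2 and pDC overlapped. The gene lies at chr9:116084293-116175360 on the minus strand. Tgfbr2 had a log2 fold change of -0.41 ± 0.07 for cDC1 over pDC (adjusted p = 6.29e-05) and -0.23 ± 0.07 for cDC2 over pDC (adjusted p = 0.0107). For cDC1 over cDC2 it was -0.18 ± 0.08 at an adjusted p of 0.0492, a call at the edge of the threshold. That call was lost, with adjusted p of up to 0.119, when any 1 of 12 libraries was left out: a157, a160, a166 or a169 of cDC1, a158, a165, a167 or a173 of cDC2, and a159, a162, a164 or a171 of pDC. Tgfbr1 over Tgfbr2, per kb within a library, had a median of 1.30 in cDC1, 1.78 in cDC2 and 4.09 in pDC. That ratio was 0.322 times as high in cDC1 as in pDC and 0.412 times as high in cDC2 as in pDC (exact permutation p = 0.00216 each, adjusted 0.00325), and 0.782 times as high in cDC1 as in cDC2 (exact permutation p = 0.0260, adjusted 0.0292).

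Other genes of these pathways were taken from 5 lists with 94 symbols in all, of which 85 were tested. For cDC1 over cDC2, 17 were called higher and 37 lower, or 63.5% in all, where 50.5% of all genes were called, 24.8% higher and 25.7% lower. Their median log2 fold change was -0.10, beside 0.01 over all genes. For cDC1 over pDC, 38 were called higher and 23 lower, or 71.8% beside 66.4% of all genes (34.3% higher and 32.1% lower), with a median of 0.22 beside 0.04. For cDC2 over pDC, 43 were called higher and 15 lower, or 68.2% beside 64.1% of all genes (32.2% higher and 32.0% lower), with a median of 0.31 beside 0.01. No test set any list against other genes.

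In the TGF-beta list, 15 of 22 tested genes were called higher and 4 lower for cDC2 over pDC, 9 higher and 4 lower for cDC1 over pDC, and 5 higher and 8 lower for cDC1 over cDC2. The shares called were 86.4% beside 64.1% of all genes for cDC2 over pDC, 59.1% beside 66.4% for cDC1 over pDC and 59.1% beside 50.5% for cDC1 over cDC2. Id2, an inhibitor of E proteins, had a median of 2086 CPM in cDC1, 753 CPM in cDC2 and 22.7 CPM in pDC, while its relative Id3 had 2.10 CPM in cDC1, 14.3 CPM in cDC2 and 57.3 CPM in pDC. Id2 had a log2 fold change of 6.70 for cDC1 over pDC (adjusted p = 2.92e-17), and Id3 had -4.72 (adjusted p = 1.06e-10). Pmepa1, a TGF-beta induced inhibitor of SMAD signalling, had 14.8 CPM in cDC1, 1.00 CPM in cDC2 and 78.1 CPM in pDC, with a log2 fold change of 3.70 for cDC1 over cDC2 (adjusted p = 4.16e-09) and -5.85 for cDC2 over pDC (adjusted p = 1.81e-12). Smad7, the inhibitory SMAD, had 7.66 CPM in cDC1, 24.3 CPM in cDC2 and 16.5 CPM in pDC, and Lrrc32, which tethers latent TGF-beta, had 4.77 CPM in cDC1, 1.37 CPM in cDC2 and 0.326 CPM in pDC.

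The other receptors of the superfamily included Acvrl1, a type I receptor known from endothelium, with 54.4 CPM in cDC1, 12.2 CPM in cDC2 and 2.66 CPM in pDC. Acvr2a, an activin type II receptor, ran the other way with 4.15 CPM in cDC1, 8.24 CPM in cDC2 and 22.5 CPM in pDC. The coreceptors Tgfbr3 and Eng were low, with medians of 0.571 and 2.07 CPM in cDC1, 0.392 and 1.45 CPM in cDC2 and 3.30 and 5.53 CPM in pDC. Both were called lower in each comparison with pDC, and Eng was not called between cDC1 and cDC2 (log2 fold change 0.46, adjusted p = 0.364). Csf3r, the G-CSF receptor, had 1.62 CPM in cDC1, 10.6 CPM in cDC2 and 0.484 CPM in pDC. Of 13 such receptors, 12 were tested, with 6 called higher and 4 lower for cDC1 over pDC, 5 higher and 4 lower for cDC2 over pDC, and 1 higher and 4 lower for cDC1 over cDC2. The shares called were 83.3% beside 66.4% of all genes for cDC1 over pDC, 75% beside 64.1% for cDC2 over pDC and 41.7% beside 50.5% for cDC1 over cDC2.

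Among 14 JAK-STAT genes, 7 were called higher and 5 lower for cDC1 over pDC, 9 higher and 1 lower for cDC2 over pDC, and 2 higher and 8 lower for cDC1 over cDC2. That is 85.7% beside 66.4% of all genes for cDC1 over pDC, 71.4% beside 64.1% for cDC2 over pDC and 71.4% beside 50.5% for cDC1 over cDC2. Socs2, a feedback inhibitor of cytokine receptors, had 44.3 CPM in cDC1, 46.6 CPM in cDC2 and 2.29 CPM in pDC. Of the 30 kinase signalling genes tested, 15 were called higher and 9 lower for cDC1 over pDC, 13 higher and 5 lower for cDC2 over pDC, and 8 higher and 15 lower for cDC1 over cDC2. In the same order of comparisons this is 80% beside 66.4% of all genes, 60% beside 64.1% and 76.7% beside 50.5%. The SRC family kinases Fyn and Fgr took different patterns. Fyn had 66.1 CPM in cDC1, 56.3 CPM in cDC2 and 712 CPM in pDC, and Fgr had 46.9 CPM in cDC1, 371 CPM in cDC2 and 387 CPM in pDC. Syk, a kinase of immune receptors, had 32.1 CPM in cDC1, 104 CPM in cDC2 and 168.6 CPM in pDC. Among inhibitors of the RAS pathway, Spry1 had 2.46 CPM in cDC1, 0.811 CPM in cDC2 and 6.59 CPM in pDC, and Spred1 had 16.2 CPM in cDC1, 19.5 CPM in cDC2 and 3.66 CPM in pDC.

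Of the 12 ligand genes, 7 were tested, and 1 was called higher and 1 lower for cDC1 over pDC, 1 higher and 1 lower for cDC2 over pDC, and 1 higher and 2 lower for cDC1 over cDC2. In that order the shares were 28.6% beside 66.4% of all genes, 28.6% beside 64.1% and 42.9% beside 50.5%. Tgfb1 was the most abundant, with 51.1 CPM in cDC1, 77.7 CPM in cDC2 and 82.5 CPM in pDC, and was called lower for cDC1 over cDC2 and in no comparison with pDC (log2 fold change -0.52, adjusted p = 0.0177). Tgfb2 was called in the same comparison at under 1 CPM in every library (log2 fold change 1.48, adjusted p = 0.0398). Csf1 and Kitl, the ligands of CSF1R and KIT, had medians under 1 CPM in every subset.

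**Figure D5:**
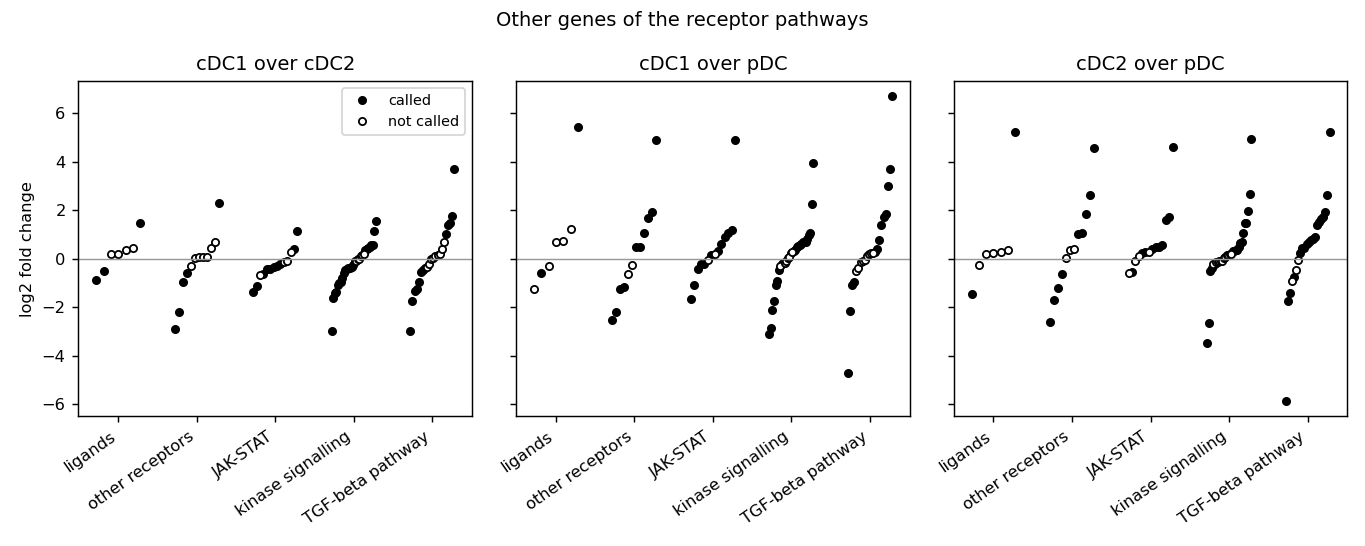
The log2 fold change of each tested gene of the 5 pathway lists for cDC1 over cDC2, cDC1 over pDC and cDC2 over pDC, with filled circles for calls at an adjusted p under 0.05. Genes lie on both sides of 0 in every list, and the highest points in the comparisons with pDC are Id2 of the TGF-beta list and Il7 of the ligands.

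The genes whose pattern over the 18 libraries was most like that of each receptor were found among 7914 other genes by the root mean square difference of centred log2 CPM. For Il7r these were Ptprcap (0.30) and Ets1 (0.36), and for Csf2rb2 they were Ctsb (0.25) and Pkig (0.26). Kit was nearest to Avpi1 (0.34) and Cyria (0.36), and Csf1r to Pxdc1 (0.58) and Ifitm3 (0.59), the largest distances in the set. Csf2ra was nearest to Trim7 (0.17) and Mfsd6 (0.19), and Tgfbr1 to Pld4 (0.17) and Xxylt1 (0.20). For the receptors that varied little, Flt3, Csf2rb and Tgfbr2, the nearest genes were Zfp511 (0.13) and Acer3 (0.14), Zc3h11a (0.12) and Tmub2 (0.13), and Htatsf1 (0.082) and Prpf4 (0.095).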

How the data were processed

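The authors deposited whole-number raw counts and normalized counts per gene, 1 table of each kind for each subset. kallisto, DESeq2 and GRCm38 are named in the submitters' processing notes, with no role or version. kallisto estimates need not be whole, so these counts may be rounded. The sources used here do not say how genes were selected for each table. The 3 normalized tables (18 columns) were not used: each column equals the raw counts divided by 1 factor, set within its subset. None of the 18 raw columns matched a sample label, so columns were grouped by the subset their table is named for. Genotype was not inferred from code order or from values.

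CPM used each library's total over its own table. Tests used the 15219 genes listed for all subsets: edgeR 4.0.16 in R 4.3.3 (TMM factors, filterByExpr, quasi-likelihood), with standard errors taken from the fold change and its F statistic, and limma 3.58.1 and DESeq2 1.42.0 as alternatives. The script was tested on simulated counts. Intervals are 95% and assume independent libraries. Exon lengths, coordinates and transcripts came from GENCODE M21 (GRCm38), promoters from RefSeq (GRCm38.p6).

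All 9 members are named. From the pathway lists, the 6 called genes with the largest change in each direction in each comparison are named, except 1 that is not reported here, and from each marker list the gene with the highest median in each subset. For each member the 2 genes nearest in pattern are named. Other marker, ligand and partner genes were chosen after their values were seen. Members, lists and tests were chosen with earlier results of these data known.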

Additional observations from a re-analysis of the deposited data

Results flagged for a closer look

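In 36 sets of 6 libraries (9 receptors and 3 ratios in 3 subsets), 3 had 1 library far from the other 5. For normal draws from 1 population, chance gives about 1 in 20. That rate need not hold here, since each set mixes genotypes and the ratios reuse the receptors. Kit in cDC1 was 112 CPM in library a172, and the other 5 libraries had 50.7 to 67.8 CPM. The per kb ratio of Tgfbr1 to Tgfbr2 in cDC1 was 1.85 in library a169, and 1.14 to 1.34 in the others. In pDC that ratio was 5.46 in library a162, and 3.58 to 4.22 in the others.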

How the results depend on the processing

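Of the 27 receptor results, 0 changed direction past the threshold under any of 6 alternative fits or when 1 of the 18 libraries was left out in turn, and 472 of 486 leave-one-out checks kept the call. The exceptions were Tgfbr2 and Csf2ra for cDC1 over cDC2, whose log2 fold changes ranged from -0.22 to -0.14 and from 0.18 to 0.29. Tgfbr2 for cDC1 over cDC2 also lost its call with DESeq2 (-0.18, adjusted p = 0.0505), upper quartile factors (-0.18, adjusted p = 0.0546), limma-voom (-0.18, adjusted p = 0.0627) and the 12 libraries of these subsets alone (-0.18, adjusted p = 0.0820). The test against a log2 fold change of 1 is stricter by construction. Under it the calls were lost for cDC1 over cDC2 of Flt3 (0.32), Kit (-1.13), Tgfbr1 (-0.54) and Tgfbr2 (-0.18), for cDC1 over pDC of Flt3 (0.64), Csf2rb (-0.50) and Tgfbr2 (-0.41), and for cDC2 over pDC of Flt3 (0.33), Csf2rb (-0.37) and Tgfbr2 (-0.23). It called 619 genes higher and 714 lower for cDC1 over cDC2, 1712 and 1287 for cDC1 over pDC, and 1779 and 1211 for cDC2 over pDC, where the fit without that demand called 3361 and 3482, 4645 and 4341, and 4355 and 4329. Of the pathway lists it called 3 higher and 10 lower, 12 and 9, and 16 and 6, in the same order of comparisons. With TMM factors the pDC medians of Flt3, Csf2rb, Csf2rb2, Il7r and Tgfbr2 were 317, 198, 143, 248 and 29.3 CPM, below those from table totals. The cDC2 median of Csf1r ranged from 131 to 336 CPM with 1 library left out, whichever it was. No paired analysis was possible because no column name holds a replicate number. Genotype is mixed within each subset under every alternative run.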

Other observations

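Hdac1, the gene targeted in the study, fell into separate clusters in each subset. In cDC1 it was 56.9 CPM in library a157, 71.8 in a160, 74.6 in a163, 5.14 in a166, 4.94 in a169 and 9.49 in a172. In cDC2 it was 76.6 CPM in library a158, 66.1 in a161, 79.7 in a165, 6.07 in a167, 5.78 in a170 and 7.60 in a173. In pDC it was 114 CPM in library a159, 109.7 in a162, 124 in a164, 13.1 in a168, 9.52 in a171 and 14.7 in a174. These values were not used to give any library a genotype, and nothing was averaged or tested over the clusters. In the cDC2 libraries, in the same order of codes, Csf1r was 131, 107, 105, 336, 339.9 and 339 CPM, Lyz2 was 2580, 2819, 2656, 9257, 5002 and 7224 CPM, and Csf3r was 7.16, 8.34, 5.75, 12.8, 14.1 and 17.1 CPM. Lyz2 and Csf3r were chosen after their values were seen. Csf1r was not the only receptor without overlap between the Hdac1 clusters. Csf2ra did not overlap in any subset, and in cDC2 it was 187, 177, 179, 198, 243 and 229 CPM. Csf2rb2 and Tgfbr1 did not overlap in cDC2 and pDC, Kit in cDC1, and Csf1r and Tgfbr2 in pDC. All other receptor values overlapped between the clusters, including those of Flt3, Csf2rb and Il7r in every subset. The gap was narrow for Csf2ra in pDC, with 53.95 CPM in library a164 and 53.96 CPM in a168. It was also narrow for Tgfbr2 in pDC, with 32.20 CPM in a162 and 32.17 CPM in a171. The share of all genes without overlap between these clusters was not counted, so the receptors cannot be called unusual in this. With so few libraries in each cluster, chance alone can part a gene. A map from the column codes to the samples would be needed to say which genotype each library came from.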
